A study of Homo sapiens and Mus musculus with 10 samples.

Results

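N2a cells, an established mouse neuroblastoma line, were treated with 300 nM thapsigargin (TG) for 6 h and compared with mock-treated cells. The comparison takes in the transcripts with 50 or more reads in the higher of the mock and TG libraries, which are 10290 of the 24770 transcript rows of the N2a table and of the 42498 different rows in the 3 tables of the series. Both libraries are labelled wild type and each stands alone, so no difference below has a replicate check and no p-value is given. A further N2a library from cells deprived of glucose for 24 h (GD) is used for reference. So are HEK293T libraries given mock treatment, 300 nM TG for 6 h or glucose deprivation for 24 h. HEK293T is a human embryonic kidney line. The series holds 10 libraries, 3 from N2a and 7 from HEK293T, all of total RNA from which ribosomal RNA was depleted.

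Thapsigargin blocks the SERCA pumps that load the endoplasmic reticulum (ER) with calcium. Loss of ER calcium impairs folding by calcium-dependent chaperones and sets off the unfolded protein response, in which the sensors PERK, IRE1 and ATF6 slow translation, splice the mRNA of XBP1 and switch on genes for chaperones, ER-associated degradation and amino acid supply. Neuroblastoma lines come from the sympathetic nervous system lineage and are widely used to study stress in neuron-like cells. The N2a rows carry RefSeq accessions with no gene symbols. Of the 24770 accessions, 0 matched the human RefSeq and GENCODE tables used here, against 99.6% of the HEK293T rows. For this reason no mouse gene is named, the unfolded protein response genes could not be looked up, and the neuroblastoma label could not be set against marker genes. What follows describes how far, in which direction and in which classes of transcript the 2 libraries differed.

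The reads counted on transcripts came to 11994514 in mock, 11216493 in GD and 11932169 in TG, so depth was nearly the same in mock and TG. Low counts were mostly even numbers. Among rows with 1 to 40 reads, 72.4% of counts were even in mock, 72.7% in GD and 71.7% in TG, and 1935 rows had 2 reads in mock against 519 with 1 read. At 1000 reads or more the even share was 49.6% in mock and 51.4% in TG. Reads were thus often counted by twos, while the counting intervals below treat each read as independent. Those of TG against mock are also given with the reads divided by 2.

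Of the 10290 transcripts, 1158 (11.3%) were at least 2-fold higher in TG and 713 (6.93%) at least 2-fold lower, 18.2% in all. Of these, 653 higher ones had under 50 reads in mock and so entered through TG alone, and 197 lower ones had under 50 reads in TG and entered through mock alone. The other calls, with 50 or more reads in both libraries, numbered 505 higher and 516 lower on the TMM scale. By the read minimum, a transcript with under 50 mock reads could be called higher but never lower. The reverse holds for transcripts with under 50 TG reads. Nothing is therefore read from where the excess of higher calls lay. These are log2 ratios of reads scaled by edgeR's TMM factors with a prior count of 5 added to each library. In all, 323 transcripts were at least 4-fold higher and 55 at least 4-fold lower. These larger ratios were not divided by whether both libraries had 50 or more reads. The read minimum can therefore bear on this split too, and it is given as a value alone. Of the higher ones, 835 lay between 2-fold and 4-fold, 230 between 4-fold and 8-fold, 64 between 8-fold and 16-fold and 29 beyond that. The lower ones divided into 658, 51, 4 and 0 over the same steps. The median log2 ratio of all 10290 was −0.03, their quartiles were −0.48 and 0.48, and the extremes were −3.35 and 6.80. With library totals in place of TMM the calls were 1395 higher and 531 lower, so that higher ones made up 72.4% of calls in place of 61.9%. The TMM scale lies −0.11 from that of the totals on the log2 scale.

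**Figure D1:**
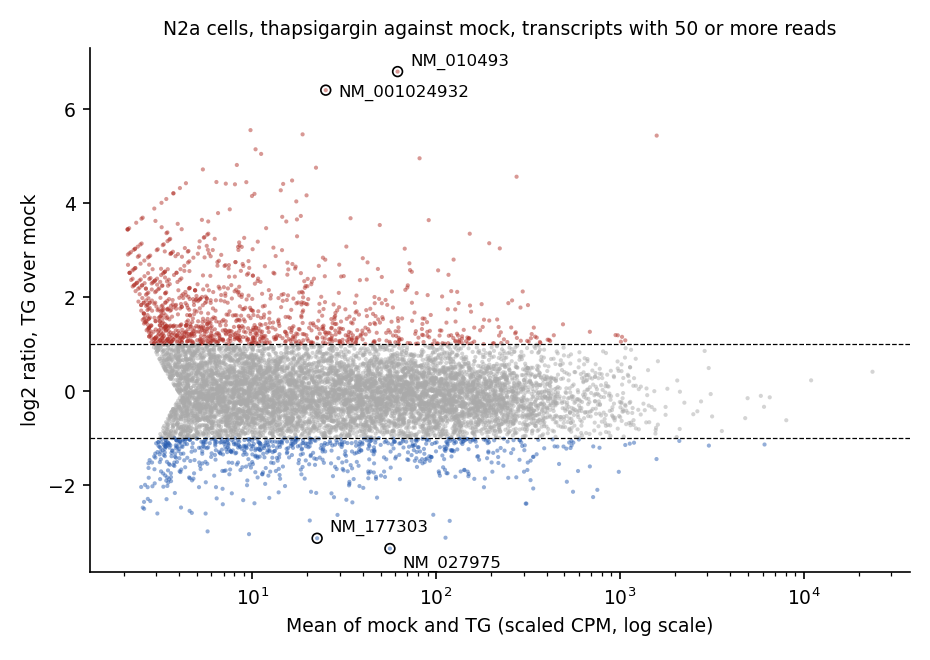
Each point is 1 of 10290 N2a transcripts, with the mean CPM of mock and TG (reads scaled to library size) on a log axis and the log2 ratio of TG over mock on the other; dashed lines mark 2-fold and the circles mark the 2 highest and 2 lowest ratios. The circled points stand at 6.80, 6.40, −3.13 and −3.35, and the cloud of ratios is widest at low mean levels.

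The 95% counting interval of the ratio lay wholly beyond 2-fold for 701 of the 1158 higher and 354 of the 713 lower transcripts. With reads divided by 2 these numbers were 563 and 276. The intervals are exact and conditional on the summed reads of a transcript, and they cover counting error only. A rough reference is the comparison of the 2 wild-type HEK293T mock libraries of the series, which belong to different sets. By the same rule 947 of 9090 shared transcripts (10.4%) were past 2-fold between them, 869 higher and 78 lower in the genotype set. Only transcripts in both tables entered, and the cause of that uneven split was not tested. Mock libraries of 2 sets thus differed by 2-fold at over 1 transcript in 10. That share can hold differences between sets as well as error between libraries. Within 1 set, TG against mock in HEK293T gave a smaller share, 8.04%. The error between 2 N2a libraries of 1 condition was not measured, so its part in the 18.2% of N2a is not known.

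The 2 highest ratios belonged to mRNA records with almost no reads in mock. NM_010493 had 8 reads in mock, 28 in GD and 1551 in TG. On scaled reads it was 180-fold higher in TG than in mock (95% counting interval 91.3 to 418, or 70.1 to 663 with reads divided by 2). Its level in TG was 123 CPM, reads scaled to library size, against 0.682 CPM in mock and 2.58 CPM in GD. NM_001024932 had 2 reads in mock, 2 in GD and 632 in TG, a ratio of 294. Its interval of 81.0 to 2432 (52.4 to 11642 with reads divided by 2) is wide because it rests on 2 mock reads. Both had few reads in mock. In GD the second stayed at its mock count, while the first was 3.78-fold higher than in mock (95% counting interval 1.68 to 9.60, each read taken as independent).

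The 2 lowest ratios came from transcripts that were well covered in mock. NM_027975 had 1204 reads in mock, 158 in GD and 122 in TG, 10.6-fold lower in TG (95% counting interval 8.80 to 12.9, or 8.15 to 14.0 with reads divided by 2). NM_177303 had 479 reads in mock, 42 in GD and 54 in TG, 9.54-fold lower in TG (95% counting interval 7.19 to 12.9, or 6.38 to 14.7 with reads divided by 2). In the GD library these transcripts were 7.06-fold and 10.6-fold lower than in mock. Since TG and GD are both set against the same mock library, the mock counts enter both ratios.

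**Figure D2:**
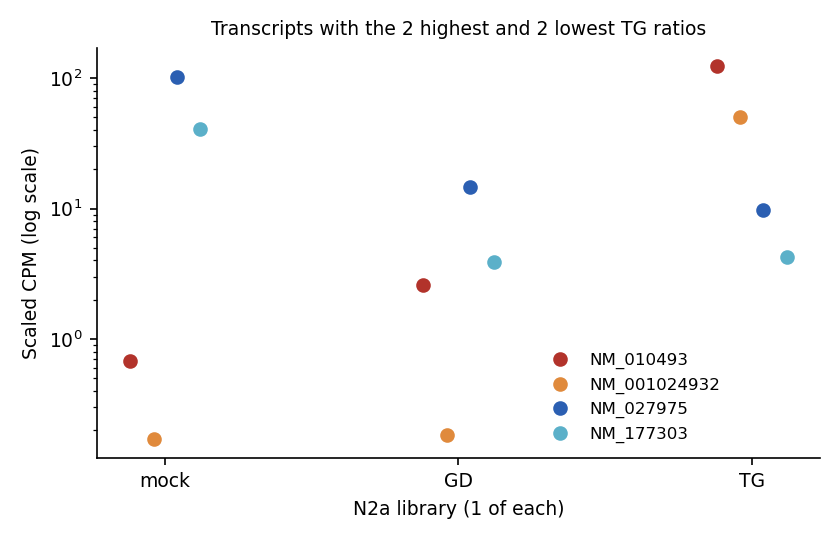
Scaled CPM on a log axis for the transcripts with the 2 highest and 2 lowest TG ratios, in the 1 mock, 1 GD and 1 TG library of N2a cells. NM_010493 and NM_001024932 stand at 123 and 50.1 in TG against 0.682 and 0.171 in mock, while NM_027975 and NM_177303 are low in both GD and TG.

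A set of 16 transcripts had no read in mock and 50 or more in TG, from 53 to 247 reads with a median of 77. Against a floor of 3 reads in the mock library they were at least 16.4-fold to at least 76.6-fold higher, with the TG reads taken as counted. The floor treats each read as independent. Where reads were counted together, these bounds would be lower. Of these, 8 had no read in GD either, and the highest GD count among them was 91. In the other direction 0 transcripts with 50 or more mock reads had no read in TG. The lower transcripts were thus all still measured in TG, while the ratios of these 16 are known as bounds alone.

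Many of the higher transcripts were scarce in mock (the plot of ratio by level shows the spread). The median of the 1158 was 38 reads in mock and 148 in TG. The median of the 713 lower ones was 276 reads in mock and 119 in TG. Calling by ratio with a read minimum in the higher library itself draws higher calls toward low mock counts. It also holds every lower call to at least that minimum in mock. These medians therefore describe the calls, and nothing more is read from them. By the mean of both libraries, 11.3% of transcripts were higher and 7.46% lower at 100 to 300 reads, and 7.14% and 5.88% at 300 to 1000. The shares were 4.2% and 5.8% at 1000 to 3000 reads, and 3.84% and 6.05% above that. Higher calls outnumbered lower ones from 100 to 1000 reads (455 against 328) and were outnumbered above (112 against 161), but with library totals the numbers were 559 against 244 and, above 1000 reads, 150 against 111, so the order at high levels turns with the scaling. The median log2 ratio was −0.02 at 100 to 300 reads and −0.18 in the highest step. Below a mean of 100 reads, 22.3% of 2652 transcripts were higher and 8.45% lower, but there a row can pass the read minimum through 1 library alone, which itself raises the share past 2-fold, so that step is given as a value and nothing is read from it.

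The libraries also differed, without any read minimum, in how many transcripts were detected at all. TG had no read for 2190 of the 24770 rows (8.84%), against 4343 in mock (17.5%) and 4384 in GD (17.7%). A total of 2342 rows had reads in TG alone, against 799 in mock alone and 751 in GD alone. None of the 24770 rows lacked reads in every N2a library, so the rows read in TG alone are in the table through TG itself. The percentages are thus shares of these rows and not of a fixed annotation. Rows without a read in any library would add alike to each count. After the libraries were thinned to the GD total the rows without a read numbered 2237 in TG and 4383 in mock, so the difference remained at matched library totals. The 14480 rows under 50 reads in both libraries held 114277 reads in mock (0.953%) and 148106 in TG (1.24%).

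To see this without sorting transcripts by either library compared, rows were sorted by their reads in GD, and the mock and TG reads of each step were summed. The 4384 rows with no GD read held 8019 reads in mock and 20691 in TG, a ratio of scaled reads of 2.40. Of these rows 3006 had more reads in TG than in mock, 1158 had fewer and 220 had the same number. Each of them is in the table through its mock or TG reads, since rows without a read in any library are absent. Such absent rows would add nothing to either sum but would raise the number of equal rows. The ratio was 1.64 for rows with 1 to 2 GD reads, 1.41 for 3 to 10, 1.21 for 11 to 50 and 1.03 for 51 to 300. For rows with over 1000 and up to 10000 GD reads it was 0.906, and above that 0.879. With library totals in place of TMM these last values were 0.979 and 0.950, and rows with no GD read stood at 2.59. How far the ratio falls below 1 at high levels thus turns with the scaling. Without the 100 rows with most reads in a step, the TMM-scaled ratio for rows with no GD read was 2.05, so the excess was spread over many transcripts. Sorted in turn by their TG reads, GD and mock stayed close: the 2190 rows with no TG read held 5117 mock and 5164 GD reads, a ratio of 1.09.

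In HEK293T the same view showed no such excess. Rows with no GD read there held 4969 reads in mock and 5444 in TG, a ratio of 1.06, and 0.950 without the 100 rows with most reads. HEK293T rows without a read numbered 1356 in mock and 1426 in TG. Each line has 1 library a condition, so whether the lines differ was not tested. What underlies the N2a excess was not tested. The files hold counts on transcript records alone, so it cannot be checked whether reads elsewhere in the genome, in introns or between genes, rose as well. Whether the extra detected rows and the scarce higher transcripts stem from mature transcripts is therefore not known from these counts.

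**Figure D3:**
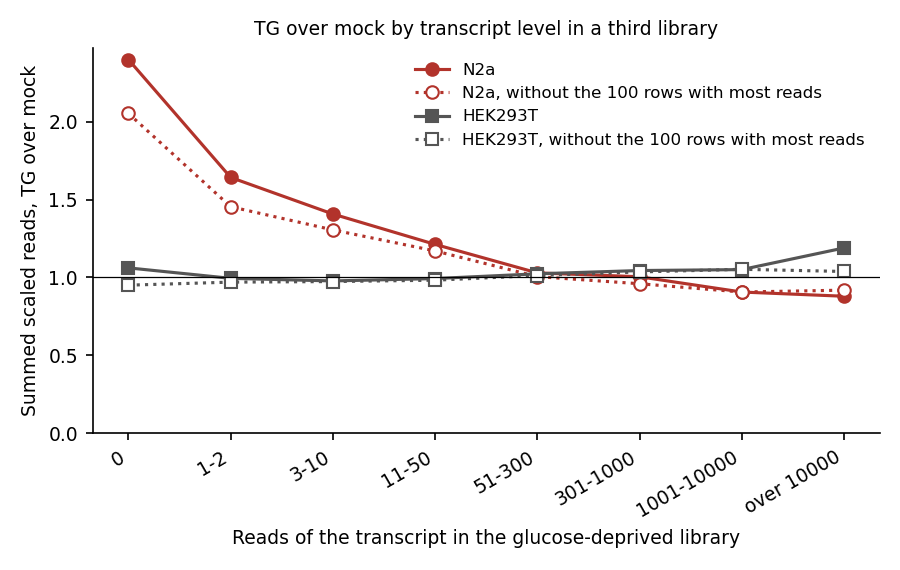
Summed scaled reads of TG over mock for transcripts sorted by their reads in the GD library of the same line, for N2a (circles) and HEK293T (squares), with and without the 100 rows with most reads in each step. On the plotted TMM scale the N2a ratio goes from 2.40 at no GD read to 0.879 above 10000 GD reads, while the HEK293T ratio with all rows stays between 0.977 and 1.19. With library totals, not plotted, the N2a values are 2.59 and 0.950, and HEK293T lies between 0.901 and 1.10.

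RefSeq marks messenger RNAs with NM_ accessions and non-coding RNAs with NR_ accessions, a split that no step of the choice of transcripts used. Of the 653 NR_ transcripts with 50 or more reads, 179 (27.4%) were at least 2-fold higher in TG and 50 (7.66%) lower. Of the 9637 NM_ transcripts, 979 (10.2%) were higher and 663 (6.88%) lower. The median log2 ratio was 0.31 for NR_ and −0.04 for NM_. NR_ transcripts took 5.09% of mock reads and 5.67% of TG reads. They were scarcer, with a median of 99 reads in the mean of both libraries against 333 for NM_. Within steps of that mean the higher share was 21.5% of 228 NR_ against 10.3% of 2291 NM_ transcripts at 100 to 300 reads. It was 24.6% of 57 against 6.71% of 2324 at 300 to 1000 reads, and 4 of 40 against 108 of 2698 above. The lower shares were 8.33% of NR_ and 7.38% of NM_ at 100 to 300 reads, and 3.51% and 5.94% at 300 to 1000. Higher calls were thus more frequent among non-coding records in each step from 100 reads, with few NR_ transcripts in the upper steps, as a description of these 2 libraries. Below 100 reads, where the read minimum bears on the shares, 34.1% of 328 NR_ and 20.6% of 2324 NM_ transcripts were higher.

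Over all transcripts passing the read minimum, the GD library gave a smaller gap of medians in the same sense, 0.19 for NR_ and −0.02 for NM_. The mock library was the same. At 100 to 300 mean reads the gap of medians was not smaller under GD. There the NR_ and NM_ medians were 0.17 and −0.02 under GD, and 0.13 and −0.03 under TG. At 300 to 1000 they were 0.29 and −0.01 under GD, and 0.44 and −0.05 under TG. Above that they were 0.04 and −0.04 under GD, and 0.04 and −0.14 under TG. Under GD 16.4% of 560 NR_ and 7.76% of 9256 NM_ transcripts were higher. By mean reads the shares were 12.6% of NR_ against 7.45% of NM_ at 100 to 300, and 17.0% against 5.27% at 300 to 1000. Above that, 7 of 40 NR_ and 120 of 2588 NM_ transcripts were higher, so in this step the gap was not smaller than under TG. In HEK293T under TG the medians were −0.07 for NR_ and 0.02 for NM_, with 6.74% of 712 NR_ and 4.56% of 8404 NM_ transcripts higher. The lower shares there were 6.04% of NR_ and 3.08% of NM_. By mean reads the HEK293T higher shares were 6.28% of NR_ against 3.98% of NM_ at 100 to 300, and 4.03% against 3.84% at 300 to 1000. Above that, 3 of 53 NR_ and 119 of 3412 NM_ transcripts were higher. Higher calls were thus more frequent among NR_ records in these HEK293T steps as well, with few such calls. Non-coding records can overlap messenger RNAs, and the sources used here do not state whether counting used strand, so that reads of overlapping records cannot be told apart.

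**Figure D4:**
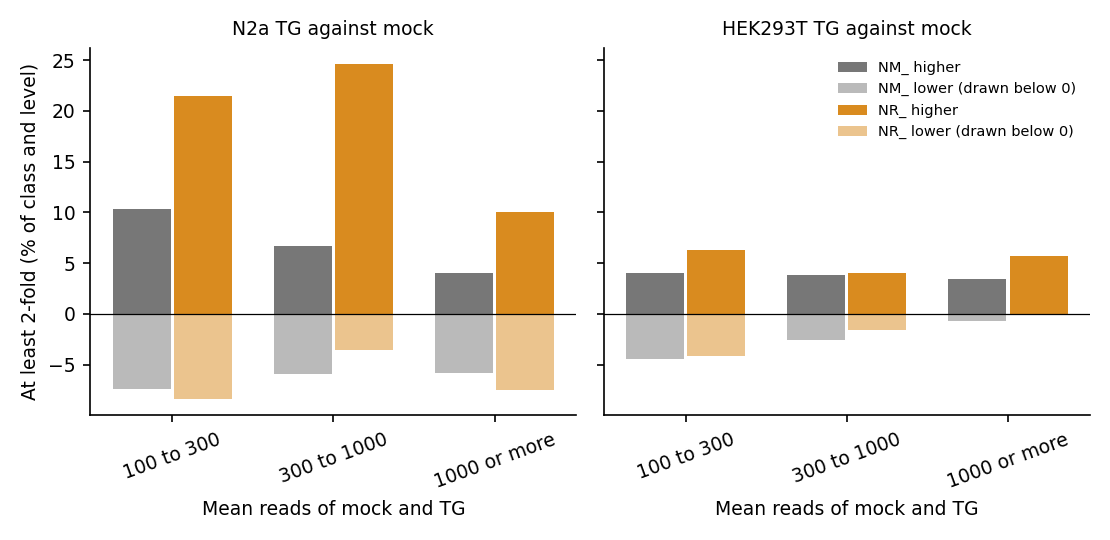
Bars give the percentage of NM_ (grey) and NR_ (orange) transcripts at least 2-fold higher (above 0) or lower (paler, drawn below 0) in TG than in mock, by mean reads of both libraries, in N2a (left) and HEK293T (right). Steps start at 100 reads, where the read minimum has no bearing, and in N2a the NR_ bar at 100 to 300 reads is 21.5% against 10.3% for NM_.

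In terms of reads rather than transcripts, the shares of the library that transcripts gained between mock and TG summed to 16.6% of the reads. The 1158 higher transcripts together gained 4.25% of the reads and the 713 lower ones gave up 4.91%, and the rest of the exchange was in transcripts that were not called. The largest gain in share belonged to the most abundant transcript, an NM_ record with 238958 reads in mock (1.99%) and 341761 in TG (2.86%), a log2 ratio of 0.41. The next largest gain was of an NM_ record with 836 reads in mock, 432 in GD and 39174 in TG, from 0.00697% to 0.328% of the reads and a log2 ratio of 5.44. Its ratio ranked 5 among the 10290. The largest loss in share was of an NM_ record with 98937 reads in mock, 44367 in GD and 48385 in TG (0.825% to 0.406%, log2 ratio −1.14). These 3 records were singled out after their values were seen. The reads stayed about equally spread, with the 100 most abundant rows at 22.3% of mock and 21.3% of TG reads.

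Set beside the other comparisons by the same rule, TG against mock in N2a had the largest share past 2-fold among the 4 comparisons plotted. GD against mock in N2a gave 810 of 9816 transcripts higher (8.25%) and 655 lower (6.67%), 14.9% in all, with the mock library in common. TG set directly against GD gave 1063 of 10298 higher (10.3%) and 763 lower (7.41%). In HEK293T the same dose and time of TG gave 431 of 9116 higher (4.73%) and 302 lower (3.31%), 8.04% in all. With library totals the HEK293T split turned to 352 higher and 395 lower. The standard deviation of the log2 ratio over transcripts was 0.87 in N2a and 0.60 in HEK293T under TG, and 0.63 between the 2 HEK293T mock libraries. HEK293T libraries were deeper, with 16990125 reads in mock and 19024327 in TG, but the shares also differed at like read counts. At 100 to 300 mean reads 4.29% of HEK293T transcripts were higher and 4.4% lower, against 11.3% and 7.46% in N2a. At 300 to 1000 reads the HEK293T shares were 3.85% and 2.55%, against 7.14% and 5.88%. With 1 library a condition the difference between lines was not tested.

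**Figure D5:**
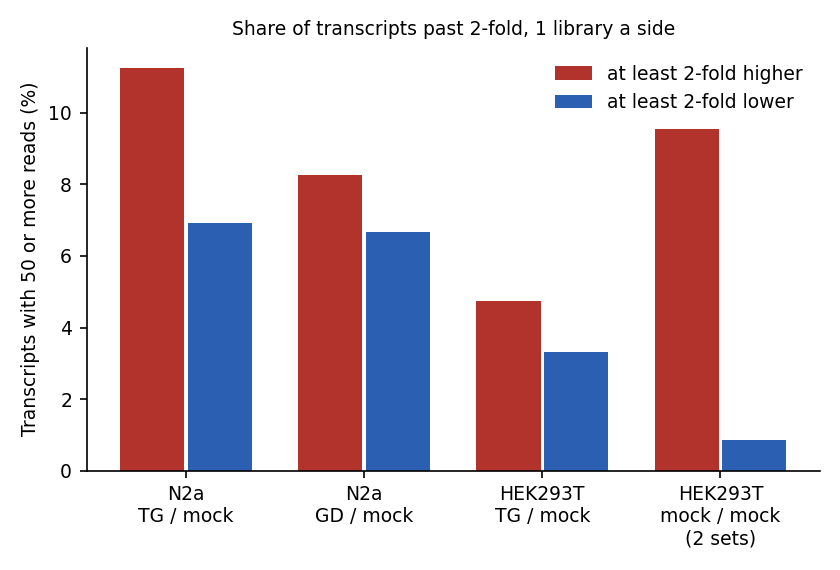
Percentage of transcripts with 50 or more reads that were at least 2-fold higher (red) or lower (blue), for 4 comparisons of 1 library with 1 library. N2a TG over mock stands at 11.3% and 6.93%, and the 2 HEK293T mock libraries of different sets at 9.56% and 0.858%.

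At the edge of the read minimum, 68 transcripts had exactly 50 reads in the higher library and a median of 33 in the other, with 12 at least 2-fold higher and 4 lower in TG. Just outside, 59 transcripts had 49 reads in the higher library and a median of 31 in the other, with 6 higher and 4 lower.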

How the data were processed

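Libraries came from TRIzol-extracted total RNA and the TruSeq Ribo Profile kit, per the labels' protocols. Tools listed in the submitters' processing notes are Bowtie2, cutadapt, bedtools and FastQC, with mm10 and hg19 as builds and no versions or settings. How reads were counted, on which annotation and with or without strand is not given in the sources used here. For N2a and HEK293T the deposited values are the authors' raw counts of reads for each RefSeq transcript, not normalized. TMM factors over the 3 N2a libraries came from edgeR 4.0.16 in R 4.3.3. Log2 ratios used a prior count of 5, and calls needed a 2-fold ratio and at least 50 reads in the higher of both libraries. Intervals are exact conditional 95% intervals (scipy 1.17.1). HEK293T tables were treated alike. With 1 library per condition no count test was run. The code was tested on simulated data. Transcripts and lists were chosen with earlier results of these data known. The rule for naming was the 2 highest and 2 lowest ratios where accessions match no annotation. Gene lists, cell type markers, promoter motifs and transcripts of the same gene needed mouse symbols and were not analysed here. The comparison of the 2 HEK293T mock libraries, of TG with GD, the RefSeq classes and the sorting by GD reads were added after the data were seen.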

Additional observations from a re-analysis of the deposited data

Results flagged for a closer look

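The number of transcript rows without a read was lower in TG than in mock in N2a and nearly the same in HEK293T. In N2a it differed by −2153 between TG and mock (2190 against 4343 of 24770 rows), and in HEK293T by 70 (1426 against 1356 of 16120 rows). As shares of rows, the HEK293T values were 8.85% in TG and 8.41% in mock, and those libraries were not brought to the same depth. Neither table holds a row that lacks reads in all its libraries, so the row totals themselves depend on the libraries. Each line has 1 library of each condition, so the difference between lines was not tested.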

How the results depend on the processing

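The count of N2a transcripts past 2-fold, 1871 in all, stayed within 1.5 times under library totals, RLE size factors, TMM over mock and TG alone, prior counts of 1 and 20, a minimum of 100 reads, thinning to the lowest total and reads divided by 2; thinning and division were chosen after seeing the data. Other settings moved it. With no read minimum there were 4854, with 3307 higher and 1547 lower. At 1.5-fold there were 4235, with 2182 higher and 2053 lower, and at 4-fold 378, with 323 higher and 55 lower. With 100 reads in the higher library 736 were higher, against 1158. More lenient bounds admit more transcripts by construction. The HEK293T TG and N2a GD counts stayed within 1.5 times under library totals and RLE. The printed accessions kept their direction under both scalings and both prior counts. Sums per gene symbol and medians of gene lists were not run, since N2a accessions have no symbols here. Leaving out a replicate was not run, since each condition has 1 library. No paired analysis was possible because each condition has 1 library and the labels carry no replicate numbers. Depth limits the scarce transcripts: below about 50 reads a 2-fold difference rests on few reads, often counted by twos.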
